A study of Mus musculus with 8 samples.

Results

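The transcription factors Foxa1, Foxa2, Foxa3, Sox17 and Hnf4a are commonly used to recognise endoderm. They were followed through every non-control probe that carries one of these gene names on the array, which gave 10 of the 41174 probes and 5 of the 28307 gene names. Of these 10 probes, 7 passed the filter on dim signals and were tested, and 3 did not. A probe passed where the scanner marked it well above background, for 1 genotype, on 3 or more of the 4 arrays of either stage. Cdx2 null embryos were compared with wild type embryos of the strain C57Bl6J/CBA, first at 4/5 somites and then at 7/8 somites, in tissue taken between the boundary of the last somite and the base of the allantois. Each genotype and stage gave 1 pool of 20 embryos, so the study holds 4 pools. Both pools of a stage were hybridised together on each of 4 arrays. The null pool carried Cy3 on arrays 1 and 3 and Cy5 on arrays 2 and 4. All ratios below are log2 of null over wild type, and an SD over 4 arrays is technical.

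The mutated gene, Cdx2, encodes a homeodomain protein that patterns the posterior embryo. The Foxa proteins are forkhead factors that can bind their sites in closed chromatin. Foxa2 is used in the node, notochord, floor plate and definitive endoderm, and Foxa1 and Foxa3 are used in the gut tube and liver. Sox17 is an HMG box factor needed to form definitive endoderm, and it is also used in endothelium and in visceral endoderm. Hnf4a is a nuclear receptor of visceral endoderm and later of liver and intestine.

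The libraries were first checked against their labels. Cdx2 itself was lower in the null pool on 8 of 8 arrays, with log2 ratios between -1.61 and -1.10 and a mean of -1.39 (SE 0.09, limma adjusted p = 1.65e-07). The sources used here do not say whether its probe lies in the deleted part of the gene. The posterior markers T, Tbx6, Msgn1, Cdx1, Wnt3a and Fgf8 were well above background on 8 of 8 arrays in both genotypes. Pairs of arrays of 1 stage correlated across tested probes at r = 0.856 to 0.918 where the dye order was the same, and at 0.477 to 0.516 where it was swapped (probes are not independent replicates). Between stages, r ran from 0.498 to 0.591 if the null pool's dye matched, and from 0.236 to 0.307 if it differed. Correlations thus followed the dye as well as the stage. The share of probes well above background ran between 46.5% and 58.9% over the 16 channels. The tissue was measured in bulk, so fewer cells of a type and less RNA per cell cannot be told apart.

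Sox17 and Hnf4a were the genes whose probes gave different answers, and their probe sequences are shown for that reason. Each probe has 60 bases. For a probe that may lie in an untranslated stretch only the last 30 bases are printed. Capitals mark the longest run of C and T in the printed probe or stretch, a description of its letters with no bearing on function. All positions are on mouse build mm9, and probes are named by the transcript base at which they start.
Sox17 base 856, chr1:4485231-4485290, minus strand, last 30 bases: gaaataatacaggaaaaCCTCagcatgtca
Sox17 base 2189, chr1:4481890-4481949, minus strand: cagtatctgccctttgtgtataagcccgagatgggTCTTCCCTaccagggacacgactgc
Sox17 base 2576, chr1:4481503-4481562, minus strand, last 30 bases: tattgatctagagaaaTTTTgtcatgcgtg
Sox17 name, opposite strand, chr1:4488752-4488811, plus strand: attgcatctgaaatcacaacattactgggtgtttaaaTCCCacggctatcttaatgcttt
Hnf4a base 413, chr2:163378302-163378361, plus strand: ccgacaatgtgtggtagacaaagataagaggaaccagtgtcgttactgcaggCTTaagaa
Hnf4a base 1779, chr2:163396065-163396124, plus strand, last 30 bases: ttcatcttcctccgtaTCTTCTTCCCTCaa
Hnf4a base 3788, chr2:163398074-163398133, plus strand, last 30 bases: aaagtttaCTCTTCTgattataagctgagg

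The Sox17 probes at bases 2189 and 2576 start 387 bases apart in the transcript and 387 bases apart in the genome, so no intron separates them. The probe at base 856 starts 1333 bases before the one at 2189 in the transcript and 3341 bases from it in the genome. The fourth probe carries the name Sox17 but reads the strand opposite to the other probes, from a cDNA clone, and no source used here says whether it reports Sox17. The Hnf4a probe at base 413 lies 17763 bases from the one at 1779 in the genome and 1366 bases from it in the transcript. The Hnf4a probes at 1779 and 3788 lie 2009 bases apart in both. The probe at 1779 is rich in pyrimidines, with 71.7% C and T against 40% in the probe at 3788.

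Of the 7 tested probes, 2 were called over both stages by limma at an adjusted p of at most 0.05, against 8.42% of all 21907 tested probes. Both were higher in the null pools, where 4.94% of all tested probes were called higher and 3.48% lower. They were the Sox17 probe at base 2576 and the Hnf4a probe at base 3788, and for both genes another probe was not called. The Hnf4a probe passed the filter through the null pools alone, where it was the higher, and the Foxa1 probe through the wild type pool at 7/8 somites alone, so the counts over the 7 describe these probes and support no direction. Of the 5 member probes that passed in both genotypes, 1 was called, that of Sox17 at base 2576, against 8.59% of the 20618 probes that did so. The null channel was the higher one on 8 of 8 arrays at 2 of the 7 probes, the same 2, and the lower one on 8 of 8 at none, against 10.5% and 8.13% of all tested probes. None of the 3 Foxa genes was called, and no member reached a 2-fold difference at either stage, except that the Hnf4a probe at base 3788 did at both with the scanner's processed signals and with the deposited matrix, against 0.292% of tested probes at 4/5 somites and 0.415% at 7/8 somites that did so with every array of the stage on 1 side of 0. The test rests on 2 values per probe, 1 for each stage, so its p-values measure the spread between stages and between probes, not between embryos.

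**Figure D1:**
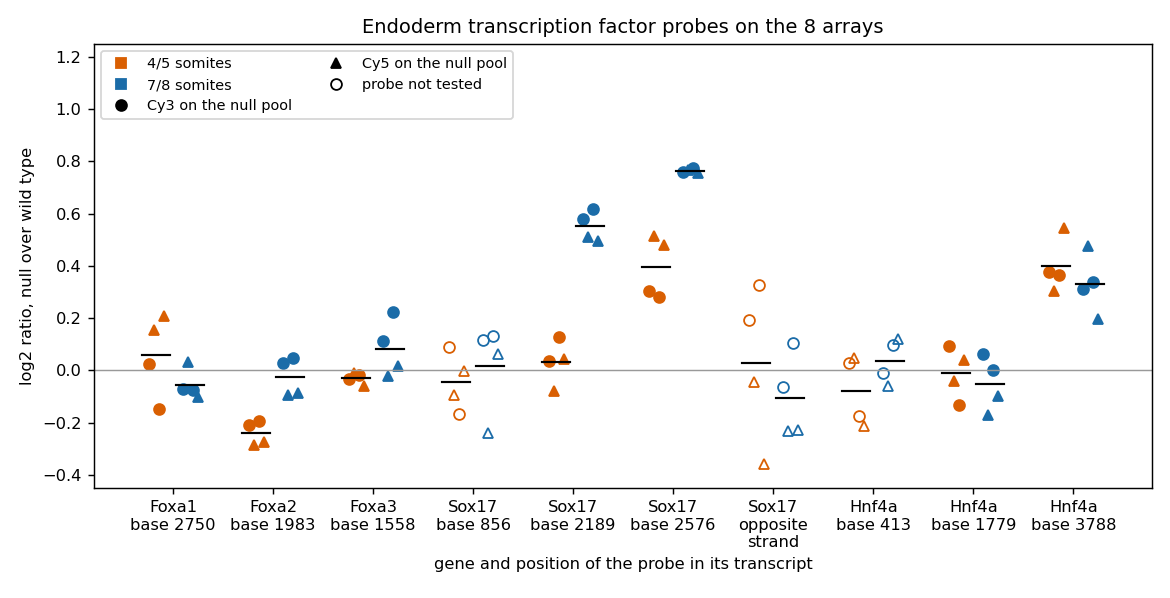
Log2 ratio of null over wild type (vertical axis) for each of the 10 probes (horizontal axis), with circles and triangles for single arrays by dye order, open symbols for probes not tested, and a bar for the mean of the 4 arrays of a stage. The Sox17 probe at base 2576 and the Hnf4a probe at base 3788 lie above 0 on 8 of 8 arrays, while Foxa1, Foxa3 and the Hnf4a probe at base 1779 lie around 0.

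Sox17 was higher in the null pool at 7/8 somites on both of its well-measured probes. At base 2576 the log2 ratios at 4/5 somites were 0.30, 0.51, 0.28 and 0.48 on arrays 1 to 4, with a mean of 0.39 ± 0.12 (SD, 4 arrays) or 1.31-fold. Those of 7/8 somites were 0.76, 0.77, 0.78 and 0.75, with a mean of 0.76 ± 0.01 or 1.70-fold. All 8 arrays were above 0, and those of 7/8 somites were all above those of 4/5 somites. Over both stages the mean was 0.58 (SE 0.10, 95% interval 0.38 to 0.78, limma adjusted p = 0.000937), or 1.49-fold.

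At base 2189 the ratios of Sox17 at 4/5 somites were 0.04, -0.08, 0.13 and 0.04, a mean of 0.03 ± 0.08. Those of 7/8 somites were 0.58, 0.51, 0.62 and 0.50, a mean of 0.55 ± 0.06 or 1.47-fold. This probe was near 0 at the earlier stage and above 0 on all 4 arrays at the later one. Its spread between arrays was wider than that of its neighbour at 7/8 somites (SD 0.06 against 0.01). It was narrower at 4/5 somites (0.08 against 0.12). Over both stages its mean was 0.29 (SE 0.11, 95% interval 0.07 to 0.52), which limma did not call (adjusted p = 0.114), and 7 of 8 arrays were above 0. The intervals of the 2 probes overlap.

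The ratio was higher at 7/8 than at 4/5 somites, with no overlap of arrays, at both Sox17 probes, by 0.37 at base 2576 and by 0.52 at base 2189, each on the log2 scale. With Foxa2, this made 3 of the 7 tested probes with arrays of 7/8 somites all above those of 4/5 somites and none with all below, against 10.3% and 8.04% of all tested probes. With 1 pool per genotype and stage this stage difference has no test. The other Sox17 probes gave no level to compare, since the probe at base 856 and the opposite-strand probe were not well above background on any array in either genotype. Their ratios averaged -0.04 ± 0.11 and 0.03 ± 0.30 at 4/5 somites and 0.02 ± 0.18 and -0.11 ± 0.16 at 7/8 somites.

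The channel levels (log2 intensity after normalisation between arrays) show which pool carried the difference. At base 2576, Sox17 read 10.30, 10.23, 10.15 and 10.04 in the null pool at 4/5 somites, against 10.001, 9.72, 9.87 and 9.56 in the wild type pool. The later null pool read 10.11, 9.93, 10.03 and 9.96 at 7/8 somites, against 9.35, 9.16, 9.25 and 9.20 in the wild type pool. The genotypes did not overlap at either stage. The null pool lay above the wild type pool without overlap at 2 of the 7 tested probes at 4/5 somites and at 3 at 7/8 somites, the Hnf4a probe at base 3788 among them at both stages, against 10.6% and 10.9% of all tested probes. It lay below without overlap at 1 probe, that of Foxa2, at 4/5 somites and at none at 7/8 somites, against 11.2% and 7.48% of all. The level at 7/8 minus that at 4/5 somites was -0.18 in the null pools, where arrays overlapped, and -0.55 in the wild type pools, where they did not.

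At base 2189 the wild type pool of 7/8 somites was again the lowest. Sox17 averaged 9.06 ± 0.10 in the null pool and 9.03 ± 0.08 in the wild type pool at 4/5 somites, and the arrays overlapped. It averaged 9.23 ± 0.15 in the null pool and 8.68 ± 0.11 in the wild type pool at 7/8 somites, with no overlap. The change between stages was 0.18 in the null pools, with overlap, and -0.34 in the wild type pools, with none. In order of level at base 2576, the null pool at 4/5 somites stood highest, then the null pool at 7/8 somites, the wild type pool at 4/5 somites and the wild type pool at 7/8 somites. Neighbours in that order overlapped on single arrays, except that the wild type pool at 7/8 somites lay below all others. It lay below all others at base 2189 too.

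Set against the earlier stage of the same genotype, no tested probe of the 7 was higher at 7/8 somites without overlap in the null pools and 2 were lower, those of Foxa3 and of Hnf4a at base 3788, against 11.1% and 9.25% of all tested probes. In the wild type pools 1 was higher, that of Foxa1, which passed the filter only through the higher of these pools, and 4 were lower, those of Foxa2, Foxa3 and both Sox17 probes, against 8.4% and 10.3% of all. None of these changes reached 2-fold, which 0.233% of all tested probes did in the null pools and 0.192% in the wild type pools. These stages were compared across arrays, with 1 pool each, and have no test.

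**Figure D2:**
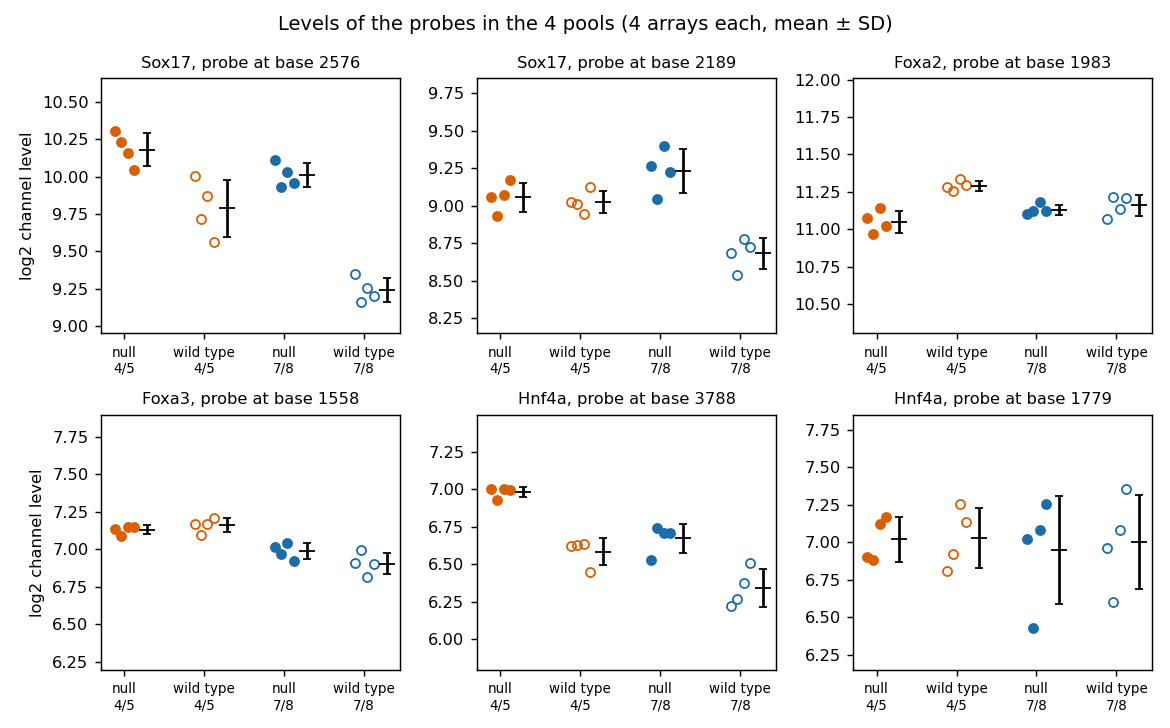
Channel level in log2 intensity (vertical axis) of 6 of the 7 tested probes (all but Foxa1), with 4 arrays per pool as points (filled for null, open for wild type) and their mean ± SD as bars, null pools left of wild type pools within each stage. At both Sox17 probes the wild type pool at 7/8 somites is the lowest, with means of 9.24 and 8.68.

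The Sox17 call at base 2576 held in 19 of 21 other settings. It ended without background correction, where the mean was 0.54 (limma adjusted p = 0.0809), and with no filter on dim probes, where it was 0.58 (limma adjusted p = 0.0694). Within slide 1 the ratios were 0.41 at 4/5 somites and 0.76 at 7/8 somites, and within slide 2 they were 0.38 and 0.77. With Cy3 on the null pool they were 0.29 at 4/5 and 0.77 at 7/8 somites, and with Cy5 on it 0.50 and 0.76.

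Hnf4a had 1 probe higher in the null pools and 1 that stayed near 0. At base 3788 the log2 ratios were 0.38, 0.30, 0.37 and 0.55 at 4/5 somites, a mean of 0.40 ± 0.10 or 1.32-fold. On the arrays of 7/8 somites they were 0.31, 0.48, 0.34 and 0.20, a mean of 0.33 ± 0.11. The null pool was higher on 8 of 8 arrays, and the stages overlapped. Over both stages the mean was 0.36 (SE 0.08, 95% interval 0.18 to 0.54, limma adjusted p = 0.0121). The probe entered the test only through the null pools, and with no filter on dim probes it was not called (limma adjusted p = 0.0522).

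This Hnf4a probe was dim. In the null pools it read 7.00, 6.93, 7.00 and 6.99 at 4/5 somites, against 6.62, 6.63, 6.64 and 6.45 in the wild type pool. The later null pool read 6.53, 6.74, 6.71 and 6.71 at 7/8 somites, against 6.22, 6.27, 6.37 and 6.51 in the wild type pool. The genotypes did not overlap at either stage. It was well above background on 4 of 4 arrays in the null pool and on 2 of 4 in the wild type pool at 4/5 somites, and on 3 of 4 in the null pool and on 0 of 4 in the wild type pool at 7/8 somites. The wild type level at 7/8 somites is therefore only a bound. Under the background correction used here, the probe was at least 1.19-fold higher in the null pool there. That bound sets the mean of the null pool against the wild type readings, each raised to a floor where it was lower. The floor was the lowest wild type signal that counts as well above background on that array. Without background correction the log2 ratio at 7/8 somites was 0.20.

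The Hnf4a call at base 3788 held in 14 of 20 other settings. Among the 6 that ended it were no background correction (mean 0.25, limma adjusted p = 0.144), uneven local backgrounds kept (mean 0.30, adjusted p = 0.0668) and array 2 of 7/8 somites left out (mean 0.34, adjusted p = 0.0656). With the scanner's own processed signals and with the deposited matrix its size was larger, a mean of 1.49 with 1.29 at 4/5 somites and 1.69 at 7/8 somites. Its size thus depended on how background was treated.

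The Hnf4a probe at base 1779 read 0.09, -0.04, -0.13 and 0.04 at 4/5 somites and 0.06, -0.17, 0.00 and -0.10 at 7/8 somites. The signs were mixed at both stages, and the mean over both was -0.03 (SE 0.08, 95% interval -0.21 to 0.15, limma adjusted p = 0.904). The difference between the 2 Hnf4a probes was not tested. Its levels averaged 7.02 ± 0.15 in the null pool and 7.03 ± 0.20 in the wild type pool at 4/5 somites, and 6.95 ± 0.36 in the null pool and 7.00 ± 0.31 in the wild type pool at 7/8 somites. The spread between arrays was wide, since array 2 of 7/8 somites read 6.43 in the null and 6.60 in the wild type channel, and array 4 read 7.26 and 7.36. The Hnf4a probe at base 413 was not well above background on any array, with ratios of -0.08 ± 0.14 and 0.04 ± 0.09. Of the Hnf4a transcript, the files thus measured only its later stretch.

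**Figure D3:**
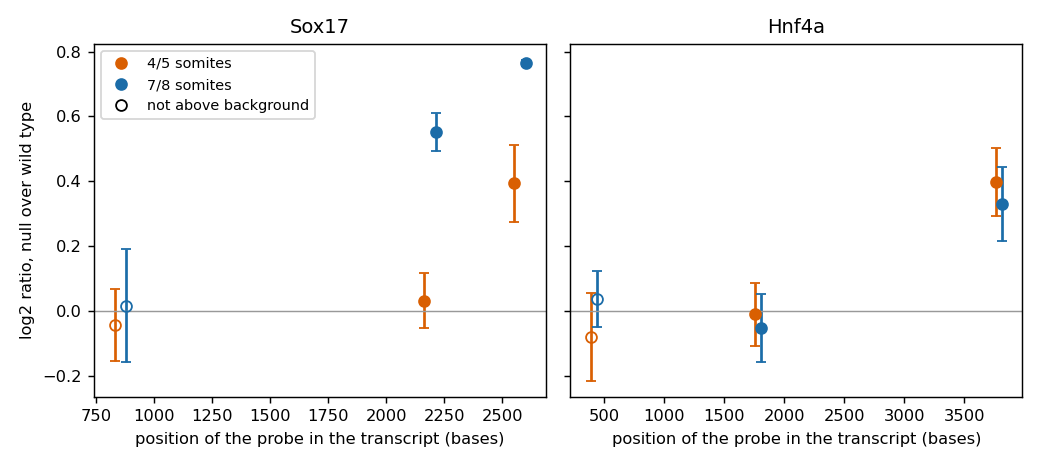
Log2 ratio of null over wild type (vertical axis) against the start of each Sox17 and Hnf4a probe in its transcript (horizontal axis, bases), with the mean and SD of 4 arrays per stage and open symbols for probes that did not pass the filter. The last probe of each transcript has the highest ratio of that gene at 4/5 somites, 0.39 for Sox17 and 0.40 for Hnf4a.

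Foxa2 was lower in the null pool at 4/5 somites on every array, by less than the 2-fold rule, and near 0 at 7/8 somites. It has 1 probe, at base 1983 on chr2:147868698-147868757 of the minus strand, spotted 10 times on each array. Its mean ratios were -0.21, -0.28, -0.20 and -0.27 on the arrays of 4/5 somites, a mean of -0.24 ± 0.05 or 0.846-fold. On those of 7/8 somites they were 0.03, -0.09, 0.05 and -0.09, a mean of -0.03 ± 0.07. All 4 arrays of 4/5 somites lay below 0, and all lay below those of 7/8 somites. Over both stages the mean was -0.13 (SE 0.09, 95% interval -0.32 to 0.05), which limma did not call (adjusted p = 0.445).

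The spots of Foxa2 show the reading error within an array. At 4/5 somites the null channel was lower in 39 of 40 spot readings. It was lower in 24 of 39 at 7/8 somites, with 1 reading left out as an outlier. The SD between spots of 1 array was 0.05 to 0.15 at 4/5 somites and 0.05 to 0.08 at 7/8 somites. At 7/8 somites the arrays with Cy3 on the null pool averaged 0.04 and those with Cy5 on it -0.09, so the sign followed the dye. At 4/5 somites they averaged -0.20 with Cy3 and -0.28 with Cy5, and -0.25 on slide 1 and -0.24 on slide 2. Spots of 1 array share the same 2 labelled RNAs and are not replicates of a genotype.

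Foxa2 levels were 11.08, 10.97, 11.14 and 11.02 in the null pool at 4/5 somites, against 11.29, 11.26, 11.34 and 11.30 in the wild type pool, with no overlap. The wild type arrays were all the higher ones. Foxa2 averaged 11.13 ± 0.04 in the null pool and 11.16 ± 0.07 in the wild type pool at 7/8 somites, and the arrays overlapped. The level at 7/8 minus that at 4/5 somites was 0.08 in the null pools and -0.13 in the wild type pools. The wild type pool at 4/5 somites was the highest of the 4 pools, above the other 3 on every array.

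**Figure D4:**
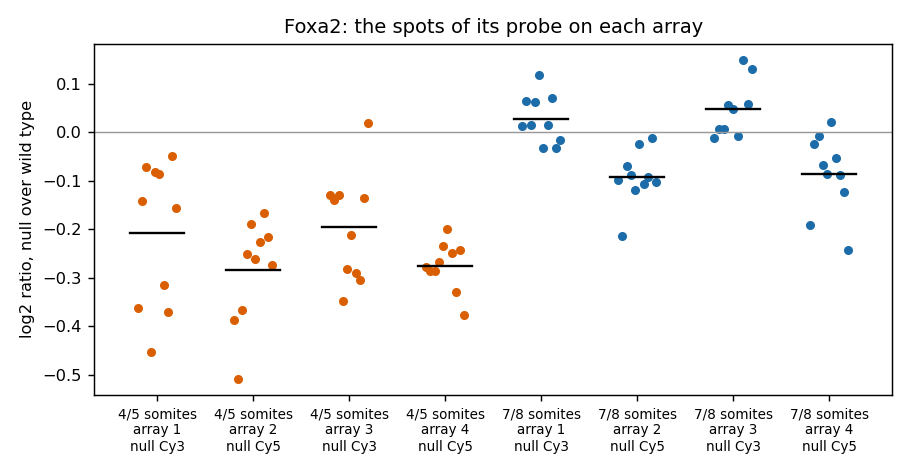
Log2 ratio of null over wild type (vertical axis) of each single Foxa2 spot on the 8 arrays (horizontal axis), with the mean of each array as a bar. At 4/5 somites 39 of 40 readings lie below 0, and at 7/8 somites the array means run between -0.09 and 0.05.

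Foxa1 and Foxa3, the relatives of Foxa2, gave no call. The Foxa3 probe at base 1558 (chr7:19599053-19599112, minus strand) read -0.03, -0.01, -0.02 and -0.06 at 4/5 somites and 0.11, -0.02, 0.22 and 0.02 at 7/8 somites. Its mean over both stages was 0.03 (SE 0.09, 95% interval -0.15 to 0.21, limma adjusted p = 0.922). Foxa3 was dim but well above background on all arrays in both channels, and it was lower at 7/8 than at 4/5 somites without overlap in both genotypes, with differences of -0.14 in the null pools and -0.26 in the wild type pools. The Foxa1 probe at base 2750 (chr12:58641996-58642055, minus strand) read 0.02, 0.16, -0.15 and 0.21 at 4/5 somites and -0.07, 0.03, -0.07 and -0.10 at 7/8 somites. Its mean was 0.0025 (SE 0.09, 95% interval -0.18 to 0.18, limma adjusted p = 0.994). Foxa1 was well above background in the null pool on 0 of 4 arrays at 4/5 somites and 2 of 4 at 7/8 somites, and in the wild type pool on 1 and on 3 of 4. No fold is therefore given for Foxa1 at 4/5 somites.

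Factors that work with the members in endoderm were measured for 21 of 27 listed genes. Of these, 6 rose in the null pools, none fell and 15 were not called, with a median log2 ratio of 0.13 against -0.01 over all 15490 genes, where 5.62% rose and 3.66% fell. Cer1, a secreted Nodal and BMP antagonist of anterior endoderm, rose by 0.95 on the log2 scale (SE 0.17, limma adjusted p = 0.00168), with 1.54 at 4/5 and 0.37 at 7/8 somites. Gata6, a zinc finger factor of primitive endoderm, rose by 0.54 (SE 0.10, limma adjusted p = 0.00251), while its other probe read -0.017. Foxp1, a forkhead factor, rose by 0.52, while its other probe read -0.0011.

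Sox7 and Sox18 are the closest relatives of Sox17, and they are named here after their values were seen. Sox7 averaged 0.47 ± 0.07 at 4/5 somites and -0.19 ± 0.11 at 7/8 somites, and its mean was not called (limma adjusted p = 0.586). Sox18 averaged -0.06 ± 0.23 at 4/5 somites and -0.45 ± 0.08 at 7/8 somites, and was not called either (limma adjusted p = 0.127). Both were thus below their own earlier ratios at 7/8 somites, the stage at which the Sox17 ratios were the higher ones.

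Epithelial genes of the gut endoderm were all measured, 26 of 26. Of these 6 rose, 5 fell and 15 were not called, with a median of 0.11. Over all genes 5.62% rose and 3.66% fell. Nepn, a midgut and hindgut gene, fell by 2.445 on the log2 scale, and Krt19, an epithelial keratin, fell by 1.37. Spink1, a trypsin inhibitor, rose by 0.74. Shh, a ligand of the gut, notochord and floor plate, fell by 0.60 (SE 0.09, limma adjusted p = 0.000221). Members of the list therefore moved both ways.

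Sox17 and Hnf4a are also visceral endoderm genes, and the median of that tissue's measured markers was above 0. Of 20 listed markers 17 were measured, 9 rose, none fell and 8 were not called, where 5.62% of all genes rose and 3.66% fell. The list median was 0.31 (0.46 at 4/5 somites, 0.18 at 7/8). Cubn and Amn, which form an uptake receptor, rose by 1.18 and 0.97, and Apoe, an apolipoprotein, rose by 0.96. Afp and Apoa2, named after their values were seen, were among those not called. Afp averaged 0.48 ± 0.08 at 4/5 somites and -0.82 ± 0.10 at 7/8 somites, and Apoa2 averaged -0.16 over both stages. The summed linear level of the measured markers was 64550 to 68930 in the null pool and 42930 to 45580 in the wild type pool at 4/5 somites, with 36580 to 38020 in the null pool and 26750 to 27400 in the wild type pool at 7/8 somites. Fga, Serpina1a and Serpina1b were not measured. The part of visceral endoderm in the Sox17 and Hnf4a ratios was not tested.

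Endothelium is another tissue that uses Sox17, and the median of its markers was below 0. Of 18 listed markers 17 were measured, 1 rose, 4 fell and 12 were not called, where 5.62% of all genes rose and 3.66% fell. The list median was -0.13 (-0.04 at 4/5 somites, -0.21 at 7/8). Etv2, which starts the blood and vessel program, fell by 1.01, Kdr, a VEGF receptor, fell by 0.88, Gja4, a gap junction gene, fell by 0.46 and Egfl7 fell by 0.40. Flt1, named after its values were seen, was the 1 that rose, by 0.33 (limma adjusted p = 0.0243). Its other probes each read 0.18. The summed level was 6408 to 6843 in the null pool and 7056 to 7371 in the wild type pool at 4/5 somites, and 6867 to 7639 in the null pool and 9438 to 10930 in the wild type pool at 7/8 somites. Pecam1 was not measured. The endothelial sum was thus lower in the null pool at both stages. The part of endothelial cells in the Sox17 ratios was not tested.

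Foxa2 is a gene of the node and notochord, of whose 20 listed markers 16 were measured. Of these 3 rose, 3 fell and 10 were not called, where 5.62% of all genes rose and 3.66% fell. The list median was -0.01 (-0.10 at 4/5 somites, 0.04 at 7/8). Col2a1, a collagen of the notochord sheath and cartilage, rose by 1.24. Bicc1, an RNA-binding protein of the node, rose by 0.64 (its other probes read 0.11 and 0.03). Tekt1, a protein of motile cilia, fell by 0.68, and Shh fell by 0.60. The summed level was 9369 to 9743 in the null pool and 10360 to 10700 in the wild type pool at 4/5 somites, and 9149 to 9795 in the null pool and 8201 to 8700 in the wild type pool at 7/8 somites. Like Foxa2 this sum was lower in the null pool at 4/5 somites, and unlike Foxa2 it was higher there at 7/8 somites. The sum includes T, used above as a posterior marker, which averaged -0.61 at 4/5 and -0.07 at 7/8 somites. Noto, Pkd1l1, Rfx3 and Pltp were not measured, and the part of node and notochord cells in the Foxa2 ratio was not tested.

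**Figure D5:**
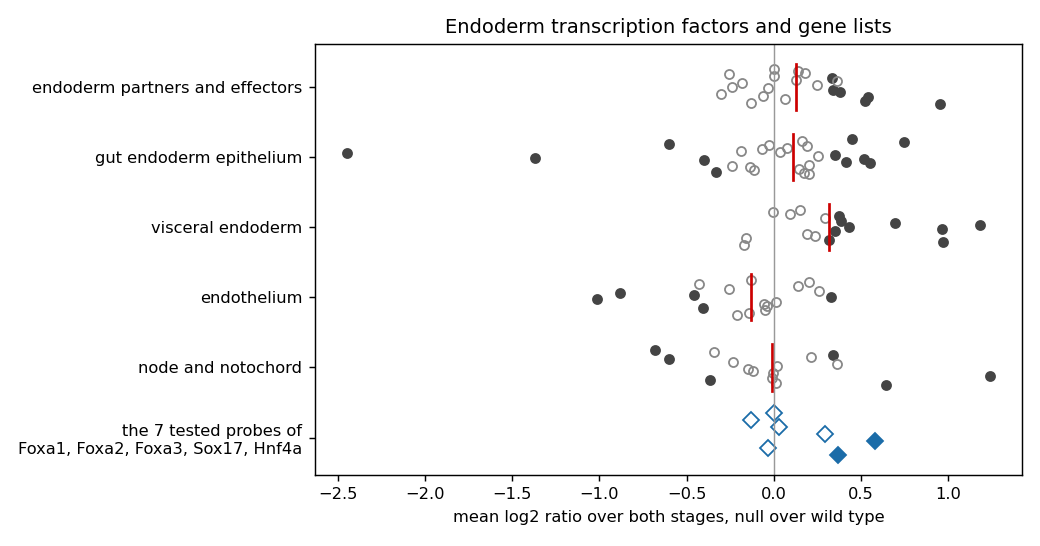
Mean log2 ratio of null over wild type over both stages (horizontal axis) for every measured gene of 5 lists (rows), with filled points for genes called by limma and a line for the list's median, and diamonds for the 7 tested member probes. The visceral endoderm list has the highest of the 5 medians, 0.31, and the endothelium list the lowest, -0.13.

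Genes whose levels ran most like those of the members over the 4 pools were found by the Euclidean distance of centred log2 levels, among 9919 or 9920 other genes well above background on all arrays. For Sox17 at base 2576 they were Gbx2 (distance 0.0768), Plat (0.0947) and Lrig1 (0.114). For Foxa2 they were Thap4 (0.0113), Clba1 (0.0131) and Lrsam1 (0.0153). For Foxa3 they were Ccne1, Virma and Ogfod1, at distances of 0.0128 to 0.0172, and for Hnf4a at base 1779 Draxin, Mien1 and Eaf1, at 0.00537 to 0.00782. Foxa1 was not measured in all 4 pools. The technical SD of a pool's level was 0.03 to 0.07 for Foxa2 and Foxa3, and 0.15 to 0.36 for Hnf4a at base 1779. For Sox17 at base 2576 it was 0.08 to 0.19. The distances of Foxa2, Foxa3 and Hnf4a were smaller than these SDs, and those of Sox17 were below or within the range of its SDs. Which genes lie nearest to any of these members is therefore not settled.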

How the data were processed

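RNA of 4 pools was measured on 8 Agilent arrays. Per the file headers, the deposited spot and background brightness values are intensity values without normalization, the scanner's processed signals are background-subtracted and dye-normalized intensity values, and its log ratio is in log10 units with Cy5 on top. The authors' deposited matrix of log10 ratios equalled that log ratio, turned to null over wild type, at 45018 of 45018 spots per array. Agilent Feature Extraction is given as 9.5.3 by the submitters' processing notes and as 10.5.1.1 by the file header.

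Here, spots with an uneven local background received the array's median background, followed by normexp (offset 50) and loess in limma 3.58.1 (R 4.3.3, version 1.17.8 of data.table). Control spots had weight 0 and outlier spots (1184, or 0.341%) were left out. Levels used Aquantile. Spots of a probe were averaged. Accessions matched RefSeq GRCm38.p6 for 25097 of 41174 probes. Each stage's 4 arrays were averaged to 1 value, and lmFit and eBayes were run on 2 values per probe, two-sided, with Benjamini-Hochberg adjustment over 21907 probes (1 residual and 14.9 prior degrees of freedom, prior SD 0.123). The test was checked on simulated data. These values were normal and independent between probes, with equal changes at both stages and no dye effect, so the check does not cover departures from that.

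The members, the 9 gene lists and the tests were chosen with earlier results of these data known. The brightest measured probe stood for a gene in a list. Named genes are all member probes, Cdx2, up to 4 called genes per list with the largest mean ratio (1 such gene is not reported here), the 3 genes nearest to each member, and the genes said to be chosen after their values were seen. The lists are endoderm partners, gut epithelium, visceral endoderm, node and notochord, floor plate, endothelium, primitive erythroid cells, trophoblast and posterior embryo. The alternatives were other background corrections, centring, filters, single slides and dye orders, and leaving out each array. The number of arrays and pools limits the precision.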

Additional observations from a re-analysis of the deposited data

Results flagged for a closer look

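Among 60 groups of 4 arrays checked for a lone value, 4 had 1 array apart from the rest, where chance gives about 1 in 20. The gap to the nearest array is given as a share of the whole range. The Hnf4a probe at base 3788 had 3 of them. In the null pool at 4/5 somites array 2 read 6.93 against 6.99 to 7.00 (share 0.884), in the null pool at 7/8 somites array 1 read 6.53 against 6.71 to 6.74 (share 0.834), and in the wild type pool at 4/5 somites array 4 read 6.45 against 6.62 to 6.64 (share 0.936). The Sox17 probe at base 856, not well above background on any array, read 6.21 on array 2 against 6.04 on the other arrays of the wild type pool at 4/5 somites (share 0.977). All are technical repeats of 1 pool, and no cause was tested.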

How the results depend on the processing

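No Foxa gene, nor the Hnf4a probe at base 1779, was called by limma under any of 21 alternatives, and no called ratio changed sign. The number of probes called, 1845, became 345 without background correction, 812 with uneven backgrounds kept, 765 with median centring, 664 with no filter on dim probes and 3110 with slide as a replicate block, which adds only technical spread. Arrays of 1 number share slide and dye order across stages, not RNA. Leaving out 1 array gave 942 to 2168 calls, with 942 and 1062 without arrays 2 and 4 of 4/5 somites and 964 and 1090 without arrays 2 and 4 of 7/8 somites. Median centring made 78.3% of calls higher in the null pools, against 58.6% in the main setting. The other alternatives gave 50.2% (Cy3 on the null pool alone) to 65.2% (no background correction). Probes past 2-fold at 4/5 somites numbered 64, and 33 without background correction, 31 with uneven backgrounds kept, 328 with scanner-processed signals and 329 with the matrix (57 to 70 leaving out arrays). Those at 7/8 somites numbered 91, and 60, 355 and 354 without background correction, with scanner-processed signals and with the matrix (87 to 94 leaving out arrays).

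Over both stages, Sox17 at base 2189 was called only within slide 2, at 0.32 (limma adjusted p = 0.0267), and ran between 0.28 and 0.31 leaving out arrays. Sox17 at base 2576 ran between 0.56 and 0.60, and was lost at 0.54 without background correction and at 0.58 with no filter. Hnf4a at base 3788 ran between 0.34 and 0.39, and was lost at 0.25 without background correction, at 0.30 with uneven backgrounds kept, at 0.36 with median centring (limma adjusted p = 0.0701), at 0.36 with no filter (0.0522) and at 0.35 with Cy3 on the null pool alone (0.0679). Leaving out arrays gave -0.02 to 0.04 for Foxa1, -0.15 to -0.12 for Foxa2, 0.00 to 0.04 for Foxa3 and -0.05 to -0.01 for Hnf4a at base 1779. Of 182 stage ratios recomputed, 161 moved by less than the spread of arrays. The causes were not tested. Dim probes (Foxa1, Hnf4a) lie close to background, which limits their ratios.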

Other observations

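Markers of other tissues near the sampled region were also measured. Over all genes, 5.62% rose in the null pools and 3.66% fell. Of 11 floor plate genes 7 were measured, with 2 that rose, Nkx6-1 by 0.56 and Nkx2-9 by 0.52 on the log2 scale, both homeodomain factors of the ventral neural tube, and 1 that fell, Shh. Of 10 trophoblast genes 7 were measured. Prl3d1, a placental hormone, rose by 0.58, Rhox6 by 0.52 and Elf5, a factor of trophoblast stem cells, by 0.52, while Plac1 fell by 0.33. Of 9 primitive erythroid genes 7 were measured, and Hbb-bh1, an embryonic globin, fell by 0.39 with the other 6 not called. Of 7 posterior embryo genes none rose and 2 fell, Cdx4 by 0.74 and Msgn1, a factor of presomitic mesoderm, by 0.60.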
